A study of Mus musculus with 2 samples.

Results

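The autophagy machinery and lysosome genes form a list of 40 genes, which were found by exact gene name among the 34745 gene rows of RNA sequencing tables from mouse regulatory T (Treg) cells. All 40 were found and all reached 1 CPM (a gene's count scaled to the depth of its library) in at least 1 library. They comprise 11 genes that start the autophagosome, 12 of its conjugation systems, 5 cargo receptors, 2 transcription factors of the TFEB family, 2 lysosomal membrane proteins, 5 cathepsins and 3 subunits of the lysosomal proton pump. The knockout library came from poh1fl/fl Foxp3Cre+ mice, in which Foxp3-driven Cre acts on floxed poh1 alleles, and the wild-type library from poh1+/+ Foxp3Cre+ mice. Mice of both genotypes were C57BL/6, 2 weeks old and carried the Cre allele. Splenic CD4-positive, Foxp3-positive cells were sorted by YFP, and how many mice a library holds is not stated in the labels. There was 1 library per genotype, so no difference has a replicate check and no test between genotypes was possible. Ranges in parentheses are exact 95% counting intervals, which leave out the variation between mice.

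Autophagy delivers cytoplasmic material to lysosomes. A kinase complex and a lipid kinase complex start a cup-shaped membrane, and ubiquitin-like conjugation attaches Atg8 proteins (LC3 and GABARAP) to its lipids. Receptors, many of which bind both ubiquitin and Atg8 proteins, load the cargo. The closed autophagosome fuses with lysosomes, where cathepsins digest its content at the low pH kept by the vacuolar proton ATPase, and TFEB and TFE3 are transcription factors of lysosomal genes. Autophagy is the other main route of protein breakdown beside the proteasome, whose lid subunit POH1 (gene Psmd14) removes ubiquitin from proteins as they are degraded. In mice, loss of autophagy genes from Treg cells is known to impair their stability and survival.

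Gene counts summed to 14544212 in the knockout and 18124611 in the wild-type library. Psmd14 had 463 counts (31.8 CPM) in the knockout and 1619 counts (89.4 CPM) in the wild-type library, the direction that the labels give. The 8 T and Treg cell markers, Foxp3 and Cd4 among them, were at 289 to 1530.02 CPM in the knockout and 318 to 1119.8 CPM in the wild-type library. With counting intervals wholly beyond 1.5-fold, Foxp3 (1.599-fold) and Il2ra (1.55-fold) were higher in the knockout library, and Ctla4 (1.59-fold) and Ikzf2 (1.57-fold) were lower, differences of the size of those of several cargo receptors. Markers of other spleen cells were also detected. The 8 B cell markers summed to 39.5 CPM in the knockout and 149 CPM in the wild-type library, and the 8 erythroid markers to 23.4 CPM in the knockout and 94.3 CPM in the wild-type library. The 8 NK and CD8 T cell markers summed to 80.8 CPM in the knockout and 41.1 CPM in the wild-type library. Among them Cd8a, Cd8b1, Eomes and Prf1 were higher in the knockout library, while Nkg7 was lower, with a ratio of 0.796 (0.663 to 0.953). Ncr1, Klrb1c and Klrd1 had few counts in both libraries, and none of them was higher in the knockout library. The 8 dendritic cell markers summed to 21.6 CPM in the knockout and 30.8 CPM in the wild-type library, and the 8 neutrophil markers to 4.61 CPM in the knockout and 13.1 CPM in the wild-type library. Among the neutrophil markers Retnlg differed in direction from the sum, with 10 counts in the knockout and 0 in the wild-type library. Of the dendritic cell markers, Xcr1, Clec9a and Cd209a had 0 counts in the knockout library, and Flt3 and Siglech were lower there. Itgax went the other way, with a ratio of 1.73 (1.39 to 2.15), and Zbtb46 had a ratio of 0.989 (0.574 to 1.69). In bulk RNA, fewer cells of a type and less RNA per cell cannot be told apart.

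Most of the autophagy and lysosome genes were at similar levels in both libraries, and the genes that stood higher in the knockout library were mainly cargo receptors. The rule for calling a gene higher or lower was a counting interval that lay wholly beyond 1.5-fold. By that rule 6 of the 40 genes were higher in the knockout library (15%), beside 9.58% of all 13464 measured genes, and 1 was lower (2.50%), beside 12.3% of all measured genes. The higher genes were Gabarapl1, Calcoco1, Nbr1, Atg13, Tax1bp1 and Sqstm1, and the lower gene was Wipi1. Knockout over wild type, the median log2 ratio was 0.18 over the 40 genes and -0.01 over all measured genes, whose quartiles were -0.44 and 0.39. The ratio stayed within 1.5-fold of no difference in 30 of the 40 genes (75%), beside 63% of all measured genes. It was above 1 in 27 genes, beside 49.6% of all measured genes, and below 1 in 13, beside 50.4%. Under a stricter rule, with the interval beyond 2-fold, 1 gene was higher (Gabarapl1, beside 4.34% of all measured genes) and 1 lower (Wipi1, beside 6.63%). With the interval beyond a ratio of 5 to 4, 10 genes were higher, beside 16.7% of all measured genes, and 5 lower, beside 19.5%.

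**Figure D1:**
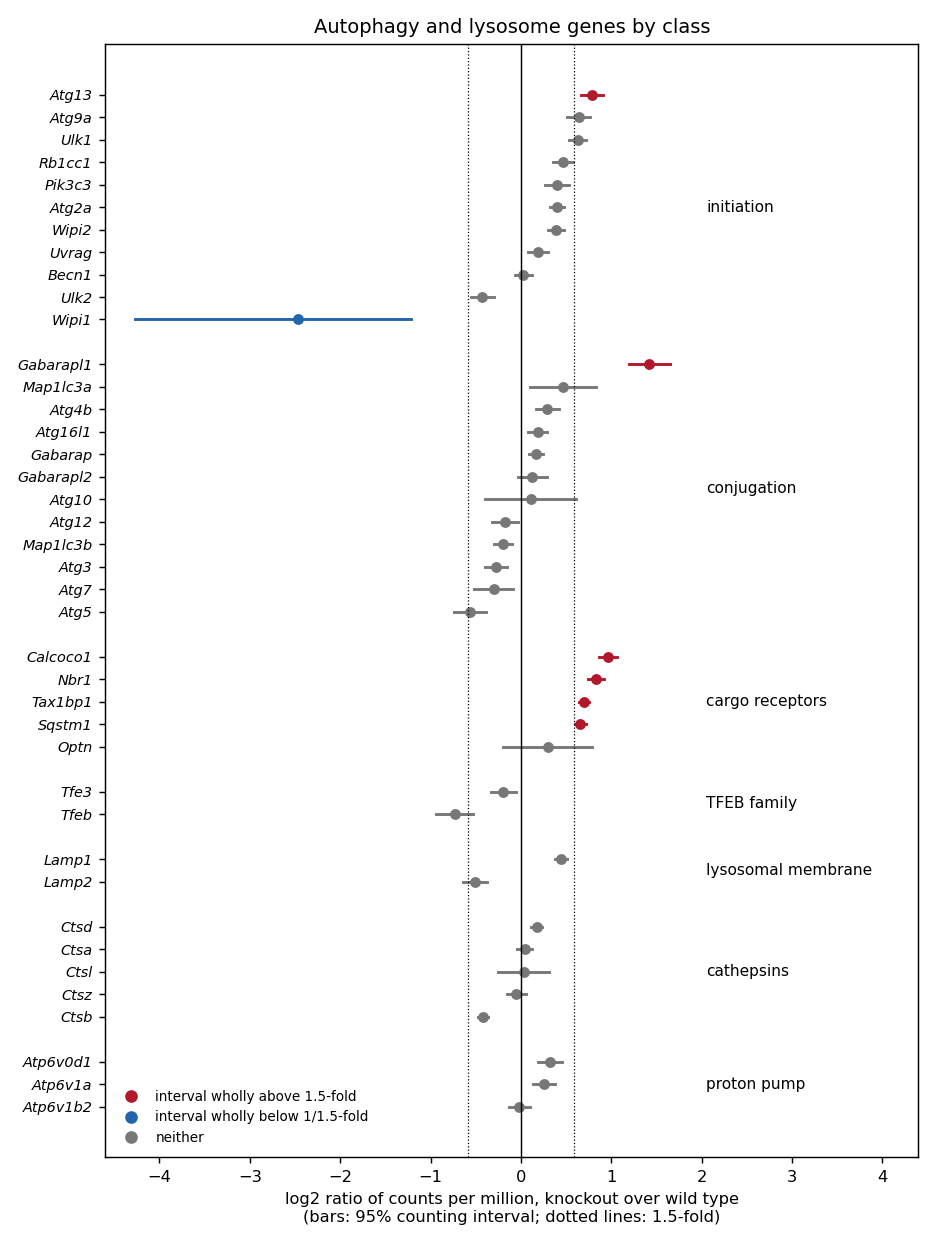
The log2 ratio of CPM, knockout over wild type, is plotted for each of the 40 genes by class, with bars for the 95% counting interval and dotted lines at 1.5-fold. Cargo receptors lie between 0.29 and 0.96, all to the right of 0, while the cathepsins lie between -0.42 and 0.17, and Gabarapl1 at 1.42 and Wipi1 at -2.47 are the extremes.

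Of the 5 cargo receptor genes, 4 were higher in the knockout library and 0 were lower, beside 9.58% and 12.3% of all measured genes. The ratio was above 1 in all 5, and it was above 1 in 49.6% of all measured genes. Calcoco1, a member of the family of NDP52 and TAX1BP1 that was described as a receptor for autophagy of the endoplasmic reticulum, had 2145 counts (147 CPM) in the knockout library and 1369 counts (75.6 CPM) in the wild-type library. It was 1.95-fold higher (1.82 to 2.09), the largest ratio of the class. Nbr1, which gathers ubiquitin-coated condensates for autophagy, had 2284 counts (157 CPM) in the knockout library and 1599 counts (88.2 CPM) in the wild-type library, and was 1.78-fold higher (1.67 to 1.90). Tax1bp1, a ubiquitin-binding receptor for protein aggregates and bacteria, had 6329 counts (435 CPM) in the knockout library and 4854 counts (268 CPM) in the wild-type library, and was 1.62-fold higher (1.56 to 1.69). With these counts Tax1bp1 had the most reads of the 40 genes in the knockout library. Sqstm1 encodes p62, the receptor that binds polyubiquitin and LC3 and is itself degraded by autophagy. It had 4876 counts (335 CPM) in the knockout library and 3850 counts (212 CPM) in the wild-type library, and was 1.58-fold higher (1.51 to 1.65), so its interval cleared the 1.5-fold line narrowly. Optn, a receptor for damaged mitochondria and bacteria, was barely expressed, with 72 counts (4.95 CPM) in the knockout library and 73 counts (4.03 CPM) in the wild-type library. Its ratio was 1.23 (0.875 to 1.72), which the low counts leave on either side of 1. Summed over the class, cargo receptor RNA was at 1079.6 CPM in the knockout and 648 CPM in the wild-type library, 1.67-fold higher (1.63 to 1.71). Exons of Sqstm1 (chromosome 11, 50199366 to 50210827, minus strand, mm10) overlap those of Mrnip over 17.3% of their length. The kit does not mark strand, so the count of Sqstm1 may hold reads of Mrnip or lack reads of the shared bases.

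Of the 11 genes that start the autophagosome, 1 was higher and 1 lower by the rule (9.09% each way, beside 9.58% and 12.3% of all measured genes). The ratio was above 1 in 9 of them, beside 49.6% of all measured genes, and the median log2 ratio was 0.40. In the ULK1 kinase complex, the scaffold gene Atg13 had 1268 counts (87.2 CPM) in the knockout library and 915 counts (50.5 CPM) in the wild-type library, and was 1.73-fold higher (1.58 to 1.88). Ulk1, the kinase itself, was at 146 CPM in the knockout and 94.2 CPM in the wild-type library, with a ratio of 1.55 (1.45 to 1.65), just short of the rule. Rb1cc1, the gene of the scaffold FIP200, was at 93.0 CPM in the knockout and 67.3 CPM in the wild-type library, with a ratio of 1.38 (1.28 to 1.49). All these genes of the complex thus had intervals wholly above 1. The related kinase gene Ulk2 went the other way, at 54.6 CPM in the knockout and 73.4 CPM in the wild-type library, with a ratio of 0.744 (0.681 to 0.813). The ratios of the 2 kinase genes differ by 1.05 on the log2 scale.

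Among genes of the lipid kinase complex, Becn1 was at 107 CPM in the knockout and 105 CPM in the wild-type library, a ratio of 1.02 (0.954 to 1.09) that spans no difference. Pik3c3, the catalytic subunit, was at 63.2 CPM in the knockout and 47.9 CPM in the wild-type library and Uvrag, a subunit of the complex that acts in endosome and autophagosome maturation, at 82.8 CPM in the knockout and 72.6 CPM in the wild-type library. The ratios were 1.32 (1.20 to 1.45) for Pik3c3 and 1.14 (1.05 to 1.24) for Uvrag, log2 ratios of 0.40 and 0.19. Both thus leaned higher and Becn1 did not. Exons of Becn1 overlap those of Cntd1 over 43.9% of their length, and Cntd1 had 22 counts in the knockout and 46 in the wild-type library. Of the genes that supply membrane, the scramblase gene Atg9a was at 73.0 CPM in the knockout and 46.9 CPM in the wild-type library, with a ratio of 1.56 (1.42 to 1.71), and the lipid transfer gene Atg2a was at 182 CPM in the knockout and 138 CPM in the wild-type library, with a ratio of 1.32 (1.247 to 1.39). Atg2a had the most counts of the class in both libraries. Exons of Atg9a overlap those of Ankzf1, which had 529 counts in the knockout and 578 in the wild-type library, over 32.6% of their length, so its value is uncertain to that extent.

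Wipi1 was the single gene of the 40 that was lower by the rule. It encodes a protein that binds the lipid made by the PIK3C3 kinase on the forming membrane. It had 5 counts (0.344 CPM) in the knockout library and 37 counts (2.04 CPM) in the wild-type library, and was 5.94-fold lower (2.33 to 19.4). The gene is nearly silent in both libraries, and 5 counts leave a wide interval. Wipi2, its close relative, which recruits ATG16L1, was at 142 CPM in the knockout and 108 CPM in the wild-type library, with a ratio of 1.31 (1.23 to 1.40). In the wild-type library Wipi2 thus had 1957 counts to the 37 counts of Wipi1.

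The Atg8 family, the ubiquitin-like proteins that coat the autophagosome, held the gene with the largest ratio of the list. The ends of their coding sequences (GENCODE M21, 5′ to 3′, without the stop codon) are shown because the family members are told apart by sequence and share the site where ATG4 proteases cut. Capitals mark the last codon of the form GGN, which encodes the glycine that is joined to lipid after ATG4 has removed what follows it.
Gabarapl1: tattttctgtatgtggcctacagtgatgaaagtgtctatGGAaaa
Gabarap: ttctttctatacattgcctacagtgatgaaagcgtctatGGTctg
Gabarapl2: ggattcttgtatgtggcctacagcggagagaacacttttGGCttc
Map1lc3a: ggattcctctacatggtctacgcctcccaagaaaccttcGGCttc
Map1lc3b: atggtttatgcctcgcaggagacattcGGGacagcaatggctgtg
The codons after it number 5 in Map1lc3b and 1 in each of the other 4. Over the whole coding sequence, Gabarapl1 is 74.6% identical to Gabarap in aligned bases, 64.2% to Gabarapl2 and 50.5% to Map1lc3b. No transcript that the annotation calls a pseudogene matches Gabarapl1 at 95% identity or more over at least 100 bases, while 3 such transcripts match Gabarapl2, whose count may be uncertain to that extent.

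Gabarapl1 (chromosome 6, 129533160 to 129542346, plus strand, mm10, protein coding) had 527 counts (36.2 CPM) in the knockout library and 245 counts (13.5 CPM) in the wild-type library. It was 2.68-fold higher (2.30 to 3.13), and 662 of the 13464 measured genes had a larger ratio. None of the other 4 family members passed the rule, so 1 of 5 was higher (20%), beside 9.58% of all measured genes. Of all 12 conjugation genes, 1 was higher (8.33%) and 0 lower, beside 9.58% and 12.3% of all measured genes. The median log2 ratio of these 12 was 0.12. Gabarap, which had the most reads of the family, was at 159 CPM in the knockout and 141 CPM in the wild-type library, with a ratio of 1.12 (1.06 to 1.19). Gabarapl2 was at 40.1 CPM in the knockout and 36.7 CPM in the wild-type library, with a ratio of 1.09 (0.975 to 1.22), an interval that spans 1. Map1lc3b, which encodes the common autophagosome marker LC3B, leaned lower, at 105 CPM in the knockout and 120.5 CPM in the wild-type library, with a ratio of 0.872 (0.817 to 0.932). Map1lc3a had few reads, at 9.28 CPM in the knockout and 6.73 CPM in the wild-type library, with a ratio of 1.38 (1.07 to 1.78). Summed over the family, the reads were at 349 CPM in the knockout and 319 CPM in the wild-type library, a ratio of 1.096 (1.05 to 1.14). Exons of Gabarapl1 overlap those of 1700101I11Rik over 28.3% of their length, a gene with 12 counts in the knockout and 11 in the wild-type library.

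The other conjugation genes went both ways. Of these 7 genes, 0 were higher and 0 lower by the rule, beside 9.58% and 12.3% of all measured genes, with log2 ratios from -0.56 to 0.29 and a median of -0.17. Atg5, which joins ATG12 and then acts as part of the ligase for LC3, had the lowest ratio, at 28.5 CPM in the knockout and 42.0 CPM in the wild-type library, 1.48-fold lower (1.31 to 1.67). Atg12 itself was at 44.1 CPM in the knockout and 49.7 CPM in the wild-type library, with a ratio of 0.886 (0.799 to 0.982), and Atg16l1, which places the ligase on the membrane, at 99.2 CPM in the knockout and 87.3 CPM in the wild-type library, with a ratio of 1.14 (1.06 to 1.22). The E1-like gene Atg7 was at 20.3 CPM in the knockout and 25.1 CPM in the wild-type library, with a ratio of 0.810 (0.698 to 0.940). The E2-like gene Atg3 was at 62.1 CPM in the knockout and 74.9 CPM in the wild-type library, with a ratio of 0.829 (0.761 to 0.902). Their intervals lay wholly below 1, and so did those of Atg5 and Atg12. Atg10, the E2-like enzyme for ATG12, was scarce, at 4.399 CPM in the knockout and 4.08 CPM in the wild-type library, with a ratio of 1.08 (0.759 to 1.53). Atg4b, the main protease that processes LC3, was at 67.5 CPM in the knockout and 55.1 CPM in the wild-type library, with a ratio of 1.22 (1.12 to 1.34), and Atg4b and Atg16l1 had intervals wholly above 1.

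The transcription factors of lysosomal genes were both lower in the knockout library on the point estimate, and neither passed the rule. Tfeb had 292 counts (20.1 CPM) in the knockout library and 605 counts (33.4 CPM) in the wild-type library, and was 1.66-fold lower (1.44 to 1.92). Tfe3, its X-linked relative, had 766 counts (52.7 CPM) in the knockout library and 1091 counts (60.2 CPM) in the wild-type library, and was 1.14-fold lower (1.04 to 1.26). Both intervals lay wholly on the lower side, and that of Tfeb reached across 1.5-fold. TFEB proteins are regulated largely by phosphorylation and movement into the nucleus, which counts of RNA do not show.

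No lysosomal membrane, cathepsin or proton pump gene of the list passed the rule. Of these 10 genes, 0 were higher and 0 lower by the rule, beside 9.58% and 12.3% of all measured genes. In all 10 the ratio stayed within 1.5-fold, beside 63% of all measured genes. Their reads summed to 1343 CPM in the knockout and 1336 CPM in the wild-type library, a ratio of 1.01 (0.986 to 1.02). The membrane glycoprotein genes split. Lamp1 was at 249 CPM in the knockout and 182 CPM in the wild-type library, 1.36-fold higher (1.30 to 1.43), and Lamp2, which is also needed for chaperone-mediated autophagy, at 50.2 CPM in the knockout and 71.6 CPM in the wild-type library, 1.42-fold lower (1.30 to 1.56). Their intervals lay on opposite sides of 1.

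Of the cathepsins, the cysteine protease gene Ctsb had the most reads in the wild-type library and the lowest ratio, at 284 CPM in the knockout and 380.4 CPM in the wild-type library, 1.34-fold lower (1.29 to 1.39). The aspartic protease gene Ctsd was at 300.5 CPM in the knockout and 266 CPM in the wild-type library, with a ratio of 1.13 (1.08 to 1.18), the highest of the class. Ctsa, a serine carboxypeptidase that also protects lysosomal glycosidases, was at 146 CPM in the knockout and 142 CPM in the wild-type library, and the carboxypeptidase gene Ctsz at 88.0 CPM in the knockout and 91.2 CPM in the wild-type library. Their ratios of 1.03 (0.971 to 1.09) and 0.964 (0.896 to 1.04) both spanned 1. Ctsl, which had the fewest reads of the class, was at 12.8 CPM in the knockout and 12.5 CPM in the wild-type library, with a ratio of 1.02 (0.836 to 1.24). In the proton pump, Atp6v0d1 of the membrane sector was at 62.2 CPM in the knockout and 49.8 CPM in the wild-type library, with a ratio of 1.2496 (1.14 to 1.37). Of the cytosolic sector, Atp6v1a, the catalytic subunit, was at 71.8 CPM in the knockout and 60.1 CPM in the wild-type library, with a ratio of 1.19 (1.096 to 1.30), and Atp6v1b2 at 78.5 CPM in the knockout and 79.4 CPM in the wild-type library, with a ratio of 0.988 (0.914 to 1.07). Exons of Ctsd, Ctsl, Ctsa and Ctsb overlap those of other annotated genes over 34.4%, 26.8%, 17.4% and 12.8% of their exon bases. Their counts may hold reads of those genes or lack reads of the shared bases.

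Lysosomal enzymes are abundant in macrophages, whose markers were present in both libraries. The 14 monocyte and macrophage markers summed to 308 CPM in the knockout and 337 CPM in the wild-type library, at 1.03 to 92.1 CPM in the knockout and 1.16 to 108 CPM in the wild-type library, and none was at 0. By the rule, 2 of them (Csf1r and Fcgr3) were higher and 1 (Ccr2) was lower in the knockout library, or 14.3% and 7.14%. Over all measured genes these shares were 9.58% and 12.3%. Ccr2 is a chemokine receptor that activated T cells also express. Without Ccr2, a value chosen after the data were seen, the sums were 298 CPM in the knockout and 228 CPM in the wild-type library. The part of these cells in the lysosomal values was not tested.

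To compare levels between genes, the deposited FPKM values (fragment counts corrected for gene length and depth) were used, here with exact Poisson intervals for counting error. Lamp1 stood highest of the 40 genes in both libraries, at 110.3 FPKM (107 to 114) in the knockout and 80.9 FPKM (78.2 to 83.7) in the wild-type library. Next in the knockout library came Ctsd, Ctsz and Ctsb, and in the wild-type library Ctsb, Ctsd and Ctsz. Ctsd was at 77.6 FPKM (75.3 to 79.9) in the knockout and 68.7 FPKM (66.8 to 70.7) in the wild-type library, and Ctsb at 60.0 FPKM (58.2 to 61.8) in the knockout and 80.3 FPKM (78.4 to 82.2) in the wild-type library. In the knockout library the intervals of Ctsz and Ctsb overlapped, and in the wild-type library those of Lamp1 and Ctsb, so neither pair is ordered beyond counting error. Wipi1, at 0.0728 FPKM in the knockout and 0.432 FPKM in the wild-type library, and Optn, at 0.885 FPKM in the knockout and 0.720 FPKM in the wild-type library, were lowest in both. Within the cargo receptors, Sqstm1 was highest, at 47.8 FPKM (46.5 to 49.2) in the knockout and 30.3 FPKM (29.3 to 31.3) in the wild-type library. Tax1bp1, at 39.2 FPKM in the knockout and 24.1 FPKM in the wild-type library, Calcoco1, at 29.4 FPKM in the knockout and 15.1 FPKM in the wild-type library, and Nbr1, at 14.3 FPKM in the knockout and 8.06 FPKM in the wild-type library, followed in the same order in both libraries.

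Within the Atg8 family the order of Gabarapl1 and Map1lc3b by deposited FPKM differed between the libraries on the point estimates. Gabarap led in both, at 47.7 FPKM (45.7 to 49.7) in the knockout and 42.5 FPKM (40.8 to 44.1) in the wild-type library. Gabarapl2 came next in both on the point estimates, at 13.5 FPKM in the knockout and 12.4 FPKM in the wild-type library. Gabarapl1 was at 11.3 FPKM (10.4 to 12.4) in the knockout and 4.23 FPKM (3.72 to 4.80) in the wild-type library, and Map1lc3b at 9.94 FPKM (9.45 to 10.5) in the knockout and 11.4 FPKM (10.9 to 11.9) in the wild-type library. Gabarapl1 thus stood below Map1lc3b in the wild-type library, with no overlap of the intervals, and above it in the knockout library, where the intervals overlapped. The order depends on gene length. The length implied by the deposited values exceeded the merged exon length of GENCODE M21 in 31 of the 40 genes, and the whole span of the gene in 4. Map1lc3b was among these 4, with 10574 bases implied and a span of 8400. With merged exon lengths instead, an order chosen after the data were seen, Gabarapl1 was at 18.0 CPM per kilobase in the knockout and 6.72 in the wild-type library. Map1lc3b was then at 13.99 and 16.0 in the same libraries, so the order of this pair was the same. On that scale Ctsd and not Lamp1 stood highest of the 40 genes in both libraries, at 128 in the knockout and 113 in the wild-type library.

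**Figure D2:**
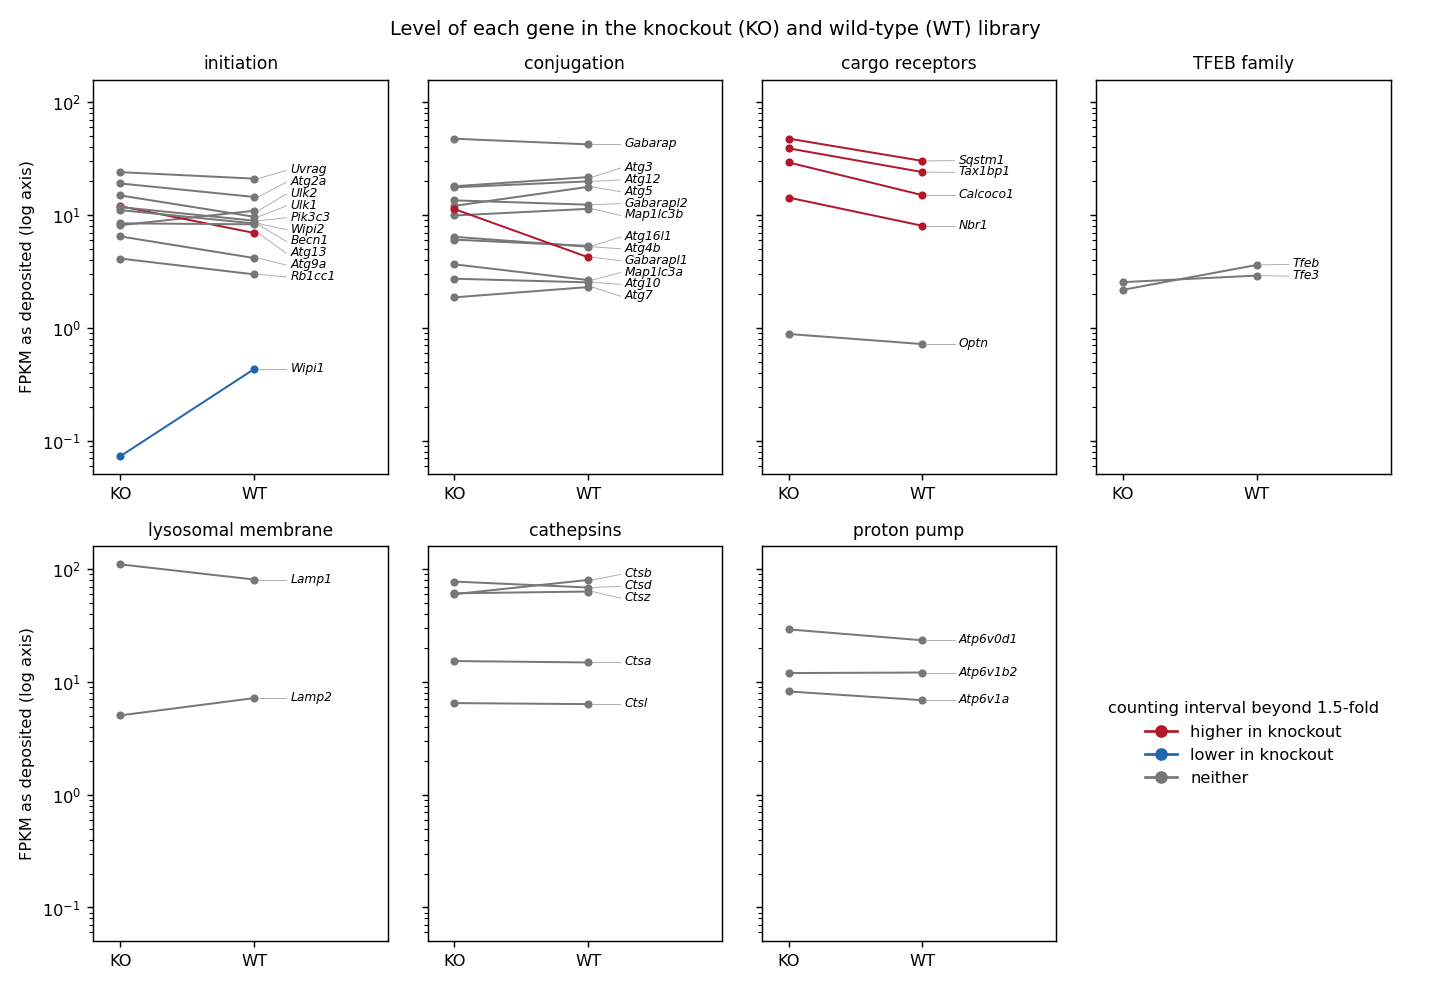
The deposited FPKM of each gene is plotted on a log axis in the knockout (KO, left) and wild-type (WT, right) library, 1 panel per class, with 1 line per gene coloured by whether its counting interval cleared 1.5-fold. The cathepsins differ by at most 1.34-fold between the libraries, 4 cargo receptors stand higher in the knockout library, and Gabarapl1 stands at 11.3 in the knockout and 4.23 FPKM in the wild-type library.

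TFEB and its relatives bind the CLEAR element, whose core is the E-box CACGTG, so the promoters of the 40 genes were searched for these letters, which read the same on both strands. Promoter windows from RefSeq (GRCm38.p6, which has the coordinates of mm10) run from 250 bases before to 50 after an annotated start, and 32 of the 40 genes had at least 1. CACGTG was present for 9 of these 32 genes (28.1%) and for 8.09% of all 27025 genes with a window. The longer form TCACGTGA, which contains it, was present for 5 members (15.6%) and 1.12% of all genes. All genes here means every gene with a window, measured in these libraries or not, whereas all members were measured. The sets are thus unlike, and the difference in shares was not tested. The 9 members were 6 lysosomal genes (Lamp1, Ctsa, Ctsd, Ctsl, Atp6v0d1 and Atp6v1a) and 3 conjugation genes (Atg3, Atg5 and Atg7). None of the windows of the 5 cargo receptors, of Gabarapl1 or of the 8 initiation genes held it, which says only that these letters are not in the windows.

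The 250 bases before the start are shown for 3 lysosomal genes that hold the hexamer, and for 3 genes counted as higher in the knockout library that do not, with CACGTG in capitals.
Lamp1 (chr8:13158911-13159160, plus strand): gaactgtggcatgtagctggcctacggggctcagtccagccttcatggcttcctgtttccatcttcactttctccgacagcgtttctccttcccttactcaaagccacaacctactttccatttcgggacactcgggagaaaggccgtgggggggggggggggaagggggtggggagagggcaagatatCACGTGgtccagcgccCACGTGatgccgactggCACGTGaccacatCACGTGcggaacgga
Ctsd (chr7:142387828-142388077, minus strand): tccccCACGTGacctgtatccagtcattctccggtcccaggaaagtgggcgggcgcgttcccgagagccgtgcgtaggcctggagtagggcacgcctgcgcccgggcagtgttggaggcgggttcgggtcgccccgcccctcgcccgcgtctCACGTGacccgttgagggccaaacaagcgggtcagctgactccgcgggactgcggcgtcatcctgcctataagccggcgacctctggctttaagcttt
Atp6v1a (chr16:44139260-44139509, minus strand): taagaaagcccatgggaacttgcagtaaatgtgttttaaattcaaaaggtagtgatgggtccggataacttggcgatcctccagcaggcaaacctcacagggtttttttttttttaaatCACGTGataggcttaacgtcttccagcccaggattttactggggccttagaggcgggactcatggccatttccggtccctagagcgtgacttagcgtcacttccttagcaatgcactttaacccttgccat
Sqstm1 (chr11:50210821-50211070, minus strand): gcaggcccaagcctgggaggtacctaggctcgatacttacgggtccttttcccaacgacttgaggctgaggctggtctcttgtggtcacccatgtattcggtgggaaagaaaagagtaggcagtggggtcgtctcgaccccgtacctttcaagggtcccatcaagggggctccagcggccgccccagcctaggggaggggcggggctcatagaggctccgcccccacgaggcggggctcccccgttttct
Calcoco1 (chr15:102722179-102722428, minus strand): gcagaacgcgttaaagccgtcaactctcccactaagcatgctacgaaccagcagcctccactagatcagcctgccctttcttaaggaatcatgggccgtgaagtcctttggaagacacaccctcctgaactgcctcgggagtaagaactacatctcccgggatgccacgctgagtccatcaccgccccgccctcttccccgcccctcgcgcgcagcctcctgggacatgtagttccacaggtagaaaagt
Gabarapl1 (chr6:129532942-129533191, plus strand): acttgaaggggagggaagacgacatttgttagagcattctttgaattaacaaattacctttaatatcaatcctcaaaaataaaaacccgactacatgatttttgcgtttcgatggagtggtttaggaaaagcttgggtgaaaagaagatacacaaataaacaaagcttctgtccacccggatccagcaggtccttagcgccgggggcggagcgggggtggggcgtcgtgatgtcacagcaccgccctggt
The stretch of Lamp1 holds 4 copies, that of Ctsd 2 and that of Atp6v1a 1. Of the 9 members with the hexamer in a window, 0 were higher and 0 lower by the rule, beside 9.58% and 12.3% of all measured genes. Their log2 ratios ran from -0.56 to 0.45 with a median of 0.04, beside -0.01 over all measured genes. Of the 23 without it, 6 stood higher and 1 lower, beside the same shares, and their median was 0.29. The groups also differ by class, as 6 of the 9 are lysosomal genes and all 5 cargo receptors are among the 23. A match of letters is not evidence of binding, and the difference between these groups was not tested.

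**Figure D3:**
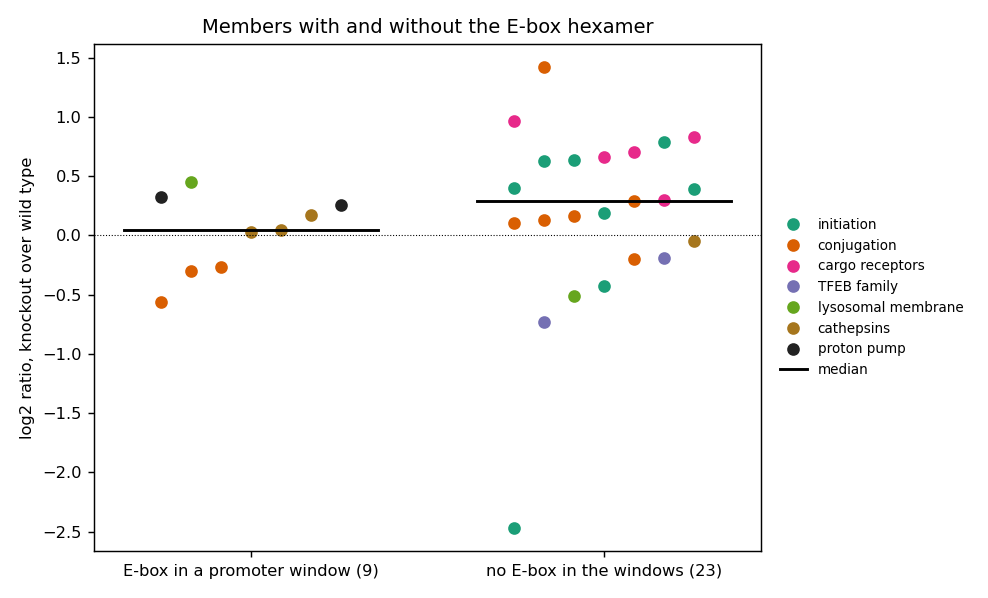
The log2 ratio of knockout over wild type is plotted for the 9 genes with the E-box hexamer in a promoter window and the 23 without it, coloured by class, with a line at the median of each. The genes with it lie between -0.56 and 0.45, and all cargo receptors are among those without it.

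Of 31 further autophagy genes, 30 were measured, 3 were higher and 1 was lower by the rule (10% and 3.33% of those measured, beside 9.58% and 12.3% of all measured genes), with a median log2 ratio of 0.22. Atg4a, a protease for Atg8 proteins that prefers the GABARAP branch, was at 74.5 CPM in the knockout and 28.8 CPM in the wild-type library, 2.59-fold higher (2.33 to 2.88). Its ratio was close to that of Gabarapl1, whereas Gabarap had 1.12, Gabarapl2 1.09 and Atg4b 1.22. A link between these values was not tested. Epg5, which tethers autophagosomes to late endosomes, was at 96.6 CPM in the knockout and 52.1 CPM in the wild-type library, 1.86-fold higher (1.71 to 2.02). Tbk1, a kinase that phosphorylates cargo receptors and also acts in interferon induction, was at 149 CPM in the knockout and 93.2 CPM in the wild-type library, 1.602-fold higher (1.502 to 1.71). The lower gene was Vmp1, an endoplasmic reticulum scramblase needed for autophagosome formation, at 43.2 CPM in the knockout and 72.9 CPM in the wild-type library, 1.69-fold lower (1.53 to 1.86). Retreg1, a receptor for autophagy of the endoplasmic reticulum with the highest FPKM of this list in the wild-type library, was at 149 CPM in the knockout and 146 CPM in the wild-type library, with a ratio of 1.02 (0.962 to 1.08).

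Of 25 further hydrolase genes, 3 stood higher and 5 lower (12% and 20%, beside 9.58% and 12.3% of all measured genes), and the median log2 ratio was 0.09. Ctsw, a cathepsin of cytotoxic lymphocytes, was at 88.0 CPM in the knockout and 42.4 CPM in the wild-type library, 2.08-fold higher (1.90 to 2.27). The summed NK and CD8 T cell markers were at 80.8 CPM in the knockout and 41.1 CPM in the wild-type library, though Nkg7 among them was lower. Their part in the value of Ctsw was not tested. Ctso was 1.94-fold higher (1.76 to 2.13). On the lower side, Ctsf was 7.80-fold lower (3.59 to 20.1), with 7 counts in the knockout library. Gla, the galactosidase deficient in Fabry disease, was at 7.90 CPM in the knockout and 22.7 CPM in the wild-type library, 2.88-fold lower (2.33 to 3.57), and the beta-galactosidase gene Glb1 was 1.94-fold lower (1.74 to 2.17). Psap, which encodes the precursor of the saposins and had the highest FPKM of this list, was at 805 CPM in the knockout and 592 CPM in the wild-type library, with a ratio of 1.36 (1.32 to 1.40).

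Of 15 further membrane and sorting genes, 14 were measured, 2 stood higher and 2 lower (14.3% each way, beside the same 9.58% and 12.3%), and the median log2 ratio was 0.12. Npc2, which carries cholesterol inside the lysosome, was at 373 CPM in the knockout and 179 CPM in the wild-type library, 2.08-fold higher (2.00 to 2.18). The mannose 6-phosphate receptors, which sort hydrolases to lysosomes, went opposite ways. Igf2r, the cation-independent receptor, was at 455 CPM in the knockout and 271 CPM in the wild-type library, 1.68-fold higher (1.61 to 1.74), and M6pr, the cation-dependent one, at 133 CPM in the knockout and 231 CPM in the wild-type library, 1.75-fold lower (1.65 to 1.84). The channel gene Mcoln2 was 4.78-fold lower (2.96 to 8.10), with 20 counts in the knockout and 119 in the wild-type library. Laptm5, a lysosomal protein of blood cells with the highest FPKM here, was at 1156 CPM in the knockout and 1359.96 CPM in the wild-type library, with a ratio of 0.850 (0.834 to 0.867).

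Among 16 further subunits and accessory proteins of the proton pump, 1 was higher and 0 lower (beside 9.58% and 12.3% of all measured genes, median 0.12). The higher gene was Atp6v0d2, a form known from osteoclasts and macrophages, with 36 counts in the knockout and 9 in the wild-type library, 4.98-fold higher (2.35 to 11.8). Atp6v1d, with the highest deposited FPKM of this list, though not per merged exon length, was at 86.5 CPM in the knockout and 84.6 CPM in the wild-type library, with a ratio of 1.02 (0.948 to 1.102). Of 21 genes of lysosomal nutrient sensing and of the mTORC1 kinase, which restrains autophagy and TFEB, 2 were higher and 2 lower (9.52% each way, beside 9.58% and 12.3%, median -0.08). The list also holds Tsc1, Tsc2, Mitf and Tfec, which are neither parts of the kinase complex nor sensors. Slc38a9, the arginine sensor of the lysosome, was at 87.6 CPM in the knockout and 51.5 CPM in the wild-type library, 1.70-fold higher (1.56 to 1.85), and Tfec, a myeloid relative of TFEB, had 68 counts in the knockout and 23 in the wild-type library, 3.68-fold higher (2.27 to 6.19). Monocyte and macrophage markers, whose sums are given above, were detected in both libraries, and their part in the values of Atp6v0d2 and Tfec was not tested. Rragb, a Rag GTPase, was at 1.86 CPM in the knockout and 8.39 CPM in the wild-type library, 4.52-fold lower (2.99 to 7.08), and Lamtor4, a subunit of the Rag anchor, at 10.4 CPM in the knockout and 21.8 CPM in the wild-type library, 2.10-fold lower (1.74 to 2.55). Rraga, the paralog of Rragb, with the highest deposited FPKM of this list in the wild-type library, was at 45.6 CPM in the knockout and 50.9 CPM in the wild-type library, with a ratio of 0.895 (0.808 to 0.990).

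**Figure D4:**
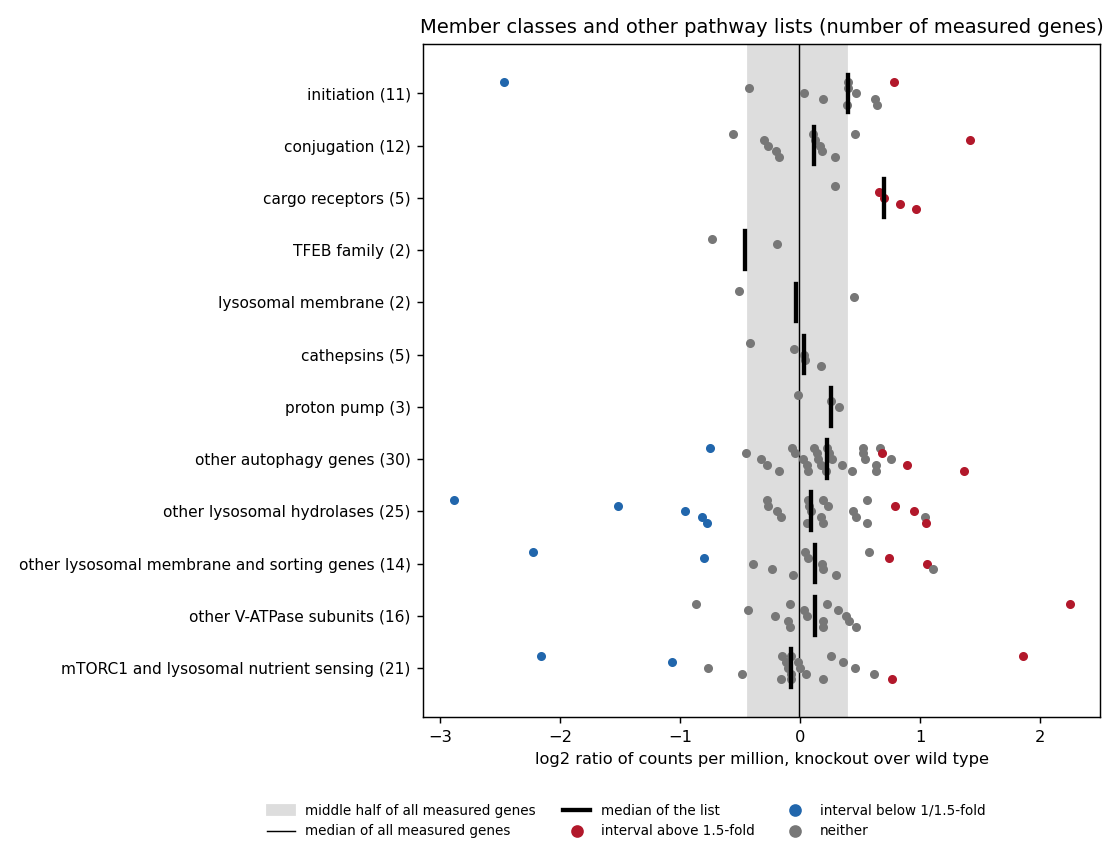
Each point is the log2 ratio of knockout over wild type of 1 measured gene, in the 7 classes of the 40 genes and the 5 further pathway lists, with a thick line at each list's median, a grey band between the quartiles of all measured genes and a thin line at their median. The band describes single genes and not medians. The list medians run from -0.46 for the TFEB family to 0.70 for the cargo receptors.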

How the data were processed

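RNA of 2 libraries was sequenced, prepared with the Illumina TruSeq RNA v2 kit per the labels' protocols. TopHat, HTSeq and the mm10 genome are named in the submitters' processing notes. The sources used here give no versions, annotation or treatment of reads with several matches. Each gene name has 2 values per library, deposited by the authors and named in the file headers as count and FPKM. The ratio of deposited count to FPKM differed between libraries by a constant, so both columns carry the same fold changes.

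Counts were scaled with TMM factors (edgeR 4.0.16 in R 4.3.3), and CPM uses the scaled totals. Ratios have exact conditional binomial (Clopper-Pearson) 95% intervals. Before taking log2, 0.5 counts were added, scaled to each library's size. Reads are not independent molecules, so intervals cover counting error only. No test was made and no set test was used. A gene was called measured from 1 CPM in either library. The calculation was tested on simulated Poisson counts. These hold counting error only, so they cannot show how the calls fare with variation between mice.

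The members and lists were chosen with earlier results of these data known. Named genes were all members that passed the rule, the extremes and the most abundant member of each class, and for other lists up to 3 called genes at each end and the most abundant one; further members are given to account for all 40. A gene that the rule names in another list is not reported here. A planned comparison of Atg8 proteins was made on coding sequence. Exon overlaps and coordinates come from GENCODE M21, alignments from Biopython 1.88, copies from blastn. Python 3.11.15, scipy 1.17.1 and pandas 2.3.3 were used.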

Additional observations from a re-analysis of the deposited data

How the results depend on the processing

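The 6 genes counted as higher and the 1 counted as lower were the same genes under plain library totals, median of ratios scaling, upper quartile scaling and no filter on low values. Requiring 5 CPM left out Atg10, Optn and Wipi1, so 6 of 37 were higher and 0 lower. Of all 10709 genes kept by that filter, 978 were higher and 1241 lower. With an interval beyond 2-fold, 1 gene was higher (Gabarapl1, beside 4.34% of all measured genes) and 1 lower (Wipi1, beside 6.63%). Over all measured genes, that rule counted 585 higher and 892 lower, against 1290 and 1659 at 1.5-fold. With an interval beyond a ratio of 5 to 4, 10 genes were higher (beside 16.7%) and 5 lower (beside 19.5%). The additional genes were Ulk1, Atg9a, Rb1cc1 and Lamp1 on the higher side and Atg5, Ctsb, Lamp2 and Tfeb on the lower, and over all measured genes it counted 2253 and 2620. Over the settings tried, the median log2 ratio ran from 0.17 to 0.22 over the 40 genes and from 0.69 to 0.77 over the cargo receptors. The sign turned for the lysosomal membrane pair, from -0.03 to 0.01, and for Atp6v1b2, from -0.02 to 0.02, under upper quartile scaling, which placed the median of all measured genes at 0.03. No paired analysis was possible because there was 1 library per genotype, and leaving out a library was not possible for the same reason. Depth limits Wipi1, Optn, Atg10 and Map1lc3a, whose intervals are wide. Levels per merged exon length left Gabarapl1 above Map1lc3b in the knockout library.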

Other observations

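Some close relatives among the autophagy and lysosome genes had different ratios in these 2 libraries. The pairs given were picked because they differed, after their values were seen, and the differences were not tested. Other relatives had closer values, with log2 ratios of 0.17 for Gabarap and 0.13 for Gabarapl2, and 0.40 for Atg2a and 0.23 for Atg2b. Among the differing pairs, the log2 ratio of knockout over wild type was 0.39 for Wipi2 and -2.47 for Wipi1, -0.16 for Rraga and -2.16 for Rragb, and 0.45 for Lamp1 and -0.51 for Lamp2. In the folliculin-interacting pair it was 0.46 for Fnip1 and -0.77 for Fnip2, and for the scaffold pair 0.18 for Atg16l1 and -0.45 for Atg16l2. In the proton pump it was 2.25 for Atp6v0d2 and 0.32 for Atp6v0d1. Wipi1, Rragb, Fnip2 and Atp6v0d2 are scarce, at most 8.39 CPM in either library.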
